A study of Mus musculus with 28 samples.

Results

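Of the 29068 gene symbols counted in skin at the wound site of mice, 9 encode the complement components and regulators described here, which are C1qa, C1qb, C1qc, C4b, C3, Cfb, C6, C7 and C3ar1. They were chosen by symbol, with results of these data known, so their levels and their differences between days are given as a description and without a test. All 9 were among the 18107 genes with enough counts for a fit across genes.

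RNA of the wound site was sequenced in 28 libraries from 7 days, with 4 libraries a day. All mice were MLKL+/+ animals of the C57BL/6J strain, 8 weeks old and of both sexes, and all were left to natural wound healing after a full-thickness punch wound to the back. The groups are Day0, which the labels treat as the control, and Day3, Day5, Day7, Day10, Day12 and Day14. The methods count the earliest time point as day 1, the day of the injury. The methods describe the tissue as the whole wound site with scab and margin, so each library holds many cell types. They do not describe the Day0 tissue apart, so how far it was wounded is not known here. In such bulk tissue, fewer cells of a type and less RNA per cell cannot be told apart. Nothing in the labels says whether the 4 libraries of a day came from separate mice, so the p-values given for other genes measure only the spread between these libraries.

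Complement is a cascade of plasma and tissue proteins that tags microbes and debris for removal, recruits leukocytes and can form pores in membranes. C1q starts the classical pathway, in which C4 and C2 form the enzyme that cleaves C3, factor B does so in the alternative pathway, and the late components form the membrane attack complex. The liver makes most plasma complement, whereas macrophages are the main source of C1q, and fibroblasts, keratinocytes and leukocytes of skin can make other components locally.

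Each library held between 36706513 and 40655764 counts. Levels are given as FPKM (fragment counts divided by the length of the gene and the depth of the library), which allow genes of different length to be compared, and differences between days as log2 fold changes from the fit, which also corrects for library composition. The Day0 libraries stood apart. The biological coefficient of variation was 26.4% among them and between 5.70% and 10.8% within the later days, and Day0 replicates 2 and 3 resembled each other more (Pearson's r of log2 CPM across genes 0.990) than either resembled replicates 1 and 4 (0.969 to 0.971), which had an r of 0.976 with each other. Summed fibroblast markers (Col1a1, Col1a2, Col3a1, Dcn, Lum and Pdgfra) were at 11799 and 11369 FPKM in replicates 2 and 3, and at 5121 and 3048 in replicates 1 and 4. Summed skeletal muscle markers were at 9684 to 15523 FPKM on Day0 and at 2131 to 5699 on the later days. For the members whose Day0 level was split, differences from Day0 are therefore also given against either pair of Day0 libraries, a choice made after seeing the data. Summed hepatocyte markers stayed at or below 2.52 FPKM in all 28 libraries.

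C1qa, C1qb and C1qc encode the 3 chains of C1q, the recognition molecule that binds antibody on surfaces and dying cells. By their means, all 3 were higher on Day3 and Day5 than on Day0, passed back through the Day0 level between Day7 and Day10, and were lowest on Day14.

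The C1qb values were 312, 233, 220.4 and 225 FPKM in the 4 libraries of Day0, 466, 469.8, 462 and 464 on Day3 and 454, 465, 483 and 553 on Day5. The libraries of Day3 and Day5 lay above every library of Day0 and overlapped each other. Against Day0, the log2 fold change of C1qb was 0.97 ± 0.083 (standard error from the fit, as after each such value) on Day3, 1.02 ± 0.083 on Day5 and 0.47 ± 0.082 on Day7. It was -0.42 ± 0.082 on Day10, -0.27 ± 0.082 on Day12 and -1.63 ± 0.084 on Day14, when the libraries held 88.5, 83.3, 87.4 and 89.3 FPKM. All libraries of Day14 were thus well below the lowest library of any other day.

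C1qa was at 241 ± 31.7 FPKM (SD, n = 4 libraries) on Day0, 357 ± 7.35 on Day3, 384 ± 43.9 on Day5 and 293 ± 22.6 on Day7. It then stood at 153 ± 3.58 on Day10, 201 ± 12.0 on Day12 and 79.4 ± 4.83 on Day14. Its highest library on Day0, replicate 1 with 289 FPKM, reached into the range of Day7, so these days overlapped, while Day14 with 73.7, 77.5, 81.6 and 84.9 FPKM overlapped no other day. For C1qa the log2 fold change was 0.62 ± 0.081 on Day3, 0.71 ± 0.081 on Day5 and -1.73 ± 0.083 on Day14.

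C1qc had the values 222, 211, 198 and 159 FPKM on Day0, 327, 332, 346 and 403 on Day5 and 57.2, 55.6, 61.3 and 61.1 on Day14. Its Day5 libraries lay above all of Day3 (303, 298, 296 and 277 FPKM), which was not so for the other 2 chains. For C1qc the log2 fold change was 0.63 ± 0.078 on Day3, 0.87 ± 0.079 on Day5, -0.58 ± 0.079 on Day10 and -1.88 ± 0.081 on Day14. Either pair of Day0 libraries gave the 3 chains the same direction on each of the 6 later days.

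**Figure D1:**
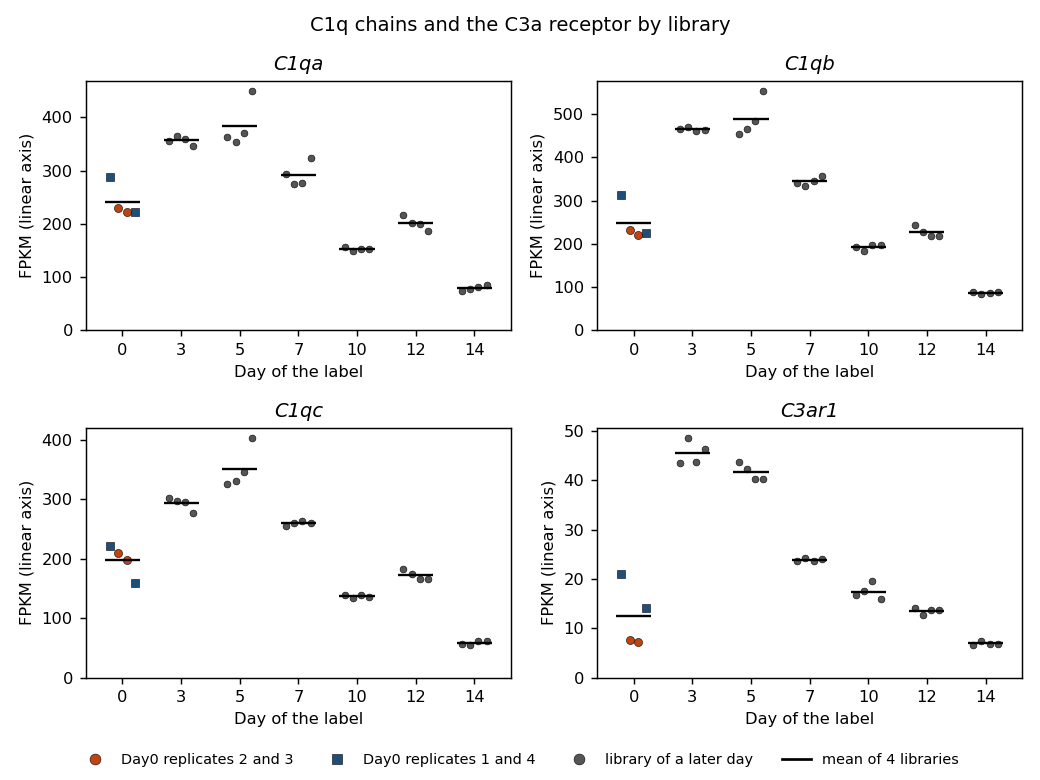
Levels of C1qa, C1qb, C1qc and C3ar1 in FPKM (linear axes from 0) against the day of the label, with 1 point for each of 28 libraries and a bar at the mean of the 4 libraries of a day. The 3 chains run together from a highest mean on Day5 to a lowest on Day14, and for C3ar1 the Day0 libraries are split between replicates 1 and 4 and replicates 2 and 3.

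The ratio of the chains moved less than their level but differed between days. C1qa stood at 0.748 to 1.01 times C1qb, and C1qc at 0.597 to 0.903 times C1qb, over the 28 libraries. On Day0 C1qa was at 0.925 to 1.01 times C1qb, and on Day3 at 0.748 to 0.778. For C1qc the ratio was 0.708 to 0.903 on Day0 and 0.597 to 0.651 on Day3, so neither ratio overlapped between these days. C1qb made up 34.3% to 42.6% of the summed FPKM of the 3 chains, C1qa 30.7% to 36.7% and C1qc 25.4% to 31.2%. Within days the chains also moved together. Over the deviations of log2 CPM from the day means, Pearson's r was 0.88 for C1qa with C1qb (28 libraries, 100000 permutations within days, adjusted permutation p = 0.00077 over 11 relations; Spearman's rho 0.77), 0.73 for C1qa with C1qc (adjusted permutation p = 0.00293; rho 0.64) and 0.74 for C1qb with C1qc (adjusted permutation p = 0.00855; rho 0.67). Without the 2 libraries farthest from the median of the first gene, Day0 replicate 1 and Day5 replicate 4, r was 0.76, 0.55 and 0.62. In the 24 libraries of the later days it was 0.82, 0.80 and 0.89 (adjusted permutation p = 0.00363, 0.00497 and 0.0011).

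The 3 genes are neighbours. In mm10 (GENCODE vM21) they lie on the minus strand of chromosome 4, with C1qb at chr4:136880129-136886187, C1qc at chr4:136889804-136893065 and C1qa at chr4:136895917-136898803. C1qb and C1qc are 3616 bases apart and C1qc and C1qa 2851 bases, with 0 protein-coding genes between them. Sequence before the start of genes that move together is shown for C1qb and C1qc, from RefSeq (GRCm38.p6), 5′ to 3′ on the strand of the gene. Capitals mark GAGGAA on either strand, the core letters bound by the myeloid factor PU.1, and TTNNGNAA on either strand, a pattern of C/EBP type.

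C1qb, chr4:136886201-136886450, the 250 bases before the RefSeq start: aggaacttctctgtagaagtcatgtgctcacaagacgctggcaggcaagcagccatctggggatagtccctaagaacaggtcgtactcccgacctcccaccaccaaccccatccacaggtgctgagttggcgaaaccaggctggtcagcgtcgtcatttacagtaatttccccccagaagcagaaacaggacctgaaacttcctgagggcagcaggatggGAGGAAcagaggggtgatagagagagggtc

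C1qc, chr4:136893066-136893164, the 99 bases of the same window that lie outside the GENCODE gene: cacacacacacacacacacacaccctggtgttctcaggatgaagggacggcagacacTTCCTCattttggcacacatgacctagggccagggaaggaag

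The C1qc stretch ends 152 bases before the RefSeq start of that gene. GAGGAA was found once in each window, 30 bases before the RefSeq start of C1qb on the gene's strand and 193 bases before that of C1qc on the other strand. TTNNGNAA was found once in the C1qc window, 81 bases before the RefSeq start and thus in the stretch not shown, and not in that of C1qb. Of the 32851 RefSeq promoter windows of 250 bases, 23.3% hold GAGGAA on 1 of the strands and 36.8% hold TTNNGNAA. RefSeq windows were found for 6 of the 9 members (C1qb, C1qc, C3, C6, C7 and C3ar1). These matches describe the letters only.

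Macrophage markers moved with C1q across the days. The summed FPKM of 7 macrophage markers (Adgre1, Csf1r, Cd68, Mertk, Fcgr1 and Mrc1 among them, all detected in every library) was 229 to 315 on Day0, 617 to 651 on Day3, 578 to 595 on Day5 and 384 to 437 on Day7. It was 263 to 295 on Day10, 261 to 287 on Day12 and 129 to 144 on Day14. The mean of the marker sum on Day3 was above that on Day5, with Cd68, Fcgr1 and Mrc1 higher on Day3, while the means of the 3 chains were highest on Day5. Adgre1 and Csf1r had their highest means on Day5 too, at 64.1 and 120.1 FPKM against 60.3 and 114 on Day3, and the libraries of these days overlapped. Within days, the deviations of C1qa and of the mean log2 CPM of the 7 markers had an r of 0.41 (adjusted permutation p = 0.224, rho 0.19, r without the 2 farthest libraries 0.19), and of -0.08 in the 24 libraries of the later days (adjusted permutation p = 0.794). Whether the number of macrophages sets the level of C1q was not tested.

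C4b encodes C4, the component cleaved by C1s and by the lectin pathway proteases, and it varied least among the members. Its libraries held 111, 151, 149.6 and 109 FPKM on Day0, 129.8, 132, 126 and 120.4 on Day3 and 128, 131, 127 and 107 on Day5, and these days overlapped. On Day7 it was at 114 ± 9.72 FPKM (SD, n = 4 libraries), and on Day10 at its lowest, with 60.3, 61.0, 66.2 and 64.4 FPKM. It was at 88.3 ± 5.59 on Day12 and 79.8 ± 3.06 on Day14. The log2 fold change against Day0 was 0.02 ± 0.090 on Day3, -0.04 ± 0.090 on Day5, -0.20 ± 0.090 on Day7, -1.10 ± 0.091 on Day10, -0.71 ± 0.091 on Day12 and -0.83 ± 0.091 on Day14.

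The sign of the first 3 of these values depended on the Day0 pair used. On Day3 the log2 fold change of C4b was -0.18 against Day0 replicates 2 and 3 and 0.31 against replicates 1 and 4, on Day5 -0.24 and 0.21, and on Day7 -0.40 and 0.034. On Day10 it was below 0 against both pairs, at -1.30 and -0.87. C4b has a near-identical paralog, C4a, which is not analysed here, and reads of C4a could have been counted as C4b or lost, so the level of C4b is uncertain.

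C3 is the protein on which all complement pathways meet, and its fragments coat targets and attract leukocytes. Its mean FPKM on Day0 was the highest of the 9 genes through replicates 2 and 3 (mean 395), while in replicates 1 and 4 (mean 166) it was below the 3 C1q chains. Its libraries held 179, 405, 385 and 153 FPKM on Day0, 429, 465, 451 and 457 on Day3, 371, 360.3, 353 and 256 on Day5 and 303, 308, 301 and 258 on Day7. The Day3 libraries were above all others, while Day5 and Day7 overlapped the split Day0 libraries. From Day10 on it stayed low, at 138, 138, 154 and 144 FPKM on Day10 and 119, 124, 129 and 121 on Day14.

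The log2 fold change of C3 against Day0 was 0.74 ± 0.19 on Day3, 0.30 ± 0.19 on Day5, 0.059 ± 0.19 on Day7 and -1.31 ± 0.19 on Day14. On Day3 it was 0.25 against Day0 replicates 2 and 3 and 1.54 against replicates 1 and 4. On Day5 and Day7 the pairs gave opposite signs, -0.19 and 1.06 on Day5 and -0.43 and 0.81 on Day7, so that the sign of C3 on these days depends on the pair. On Day14 both were below 0, at -1.80 and -0.48. Against Day3, which needs no Day0 library, the log2 fold change on Day14 was -2.05 ± 0.20.

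Cfb encodes factor B, which joins C3b in the C3 convertase of the alternative pathway. Its 4 Day0 libraries lay closest together among the members, and its log2 fold change on Day3 was the highest of the 9 against all 4 Day0 libraries, though not against replicates 2 and 3, where C3ar1 was at 2.69 and Cfb at 2.43. The libraries held 39.2, 37.1, 38.1 and 35.5 FPKM on Day0, 188, 198, 190.4 and 197 on Day3, 122, 120.2, 118 and 111 on Day5 and 65.9, 69.9, 64.5 and 65.2 on Day7. These 4 days did not overlap each other, with Day3 highest. On Day10 the values were 30.8, 30.0, 32.5 and 30.1 and on Day14 26.0, 26.9, 29.7 and 27.9, all below those of Day0. Against Day0, Cfb differed on the log2 scale by 2.42 ± 0.058 on Day3, 1.69 ± 0.056 on Day5, 0.82 ± 0.055 on Day7, -0.33 ± 0.055 on Day10, -0.44 ± 0.055 on Day12 and -0.57 ± 0.056 on Day14. Either pair of Day0 libraries gave 2.43 or 2.47 on Day3.

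C3 and Cfb are partners in 1 enzyme, but their ratio was not constant. C3 stood at 2.28 to 10.9 times the FPKM of Cfb over the 28 libraries, with the lowest ratios on Day3 and in Day5 replicate 4 and the highest in Day0 replicates 2 and 3. Within days, the deviations of C3 and Cfb had an r of 0.31 over 28 libraries (adjusted permutation p = 0.17, rho 0.63, r without the 2 farthest libraries 0.29) and of 0.69 over the 24 libraries of the later days (adjusted permutation p = 0.00022, rho 0.82, r without the 2 farthest 0.77). The rho of C3 and Cfb over 28 libraries had an adjusted permutation p of 0.0024. C3 and C4b moved together within days, with an r of 0.90 (adjusted permutation p = 0.00037, rho 0.90, r without the 2 farthest 0.87) and of 0.86 in the later days (adjusted permutation p = 0.00121). Cfb lies at chr17:34856374-34862518 on the minus strand, 85 bases from C2, and C4b at chr17:34728380-34743882 on the minus strand. C3 is on the same chromosome at chr17:57203970-57228136 on the minus strand. The sequence before its start is shown because C/EBP factors are known to drive C3 in inflammation.

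C3, chr17:57228137-57228386, the 250 bases before the RefSeq start, capitals as above: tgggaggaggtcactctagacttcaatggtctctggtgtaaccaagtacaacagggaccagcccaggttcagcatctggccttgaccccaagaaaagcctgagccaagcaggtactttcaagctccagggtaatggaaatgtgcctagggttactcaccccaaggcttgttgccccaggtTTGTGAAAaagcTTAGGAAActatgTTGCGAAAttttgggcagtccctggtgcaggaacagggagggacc

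TTNNGNAA was found at 3 places in this window, which start 70, 58 and 45 bases before the RefSeq start. Of all 32851 windows, 2.61% hold it at 3 or more places. GAGGAA was not found in the window.

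**Figure D2:**
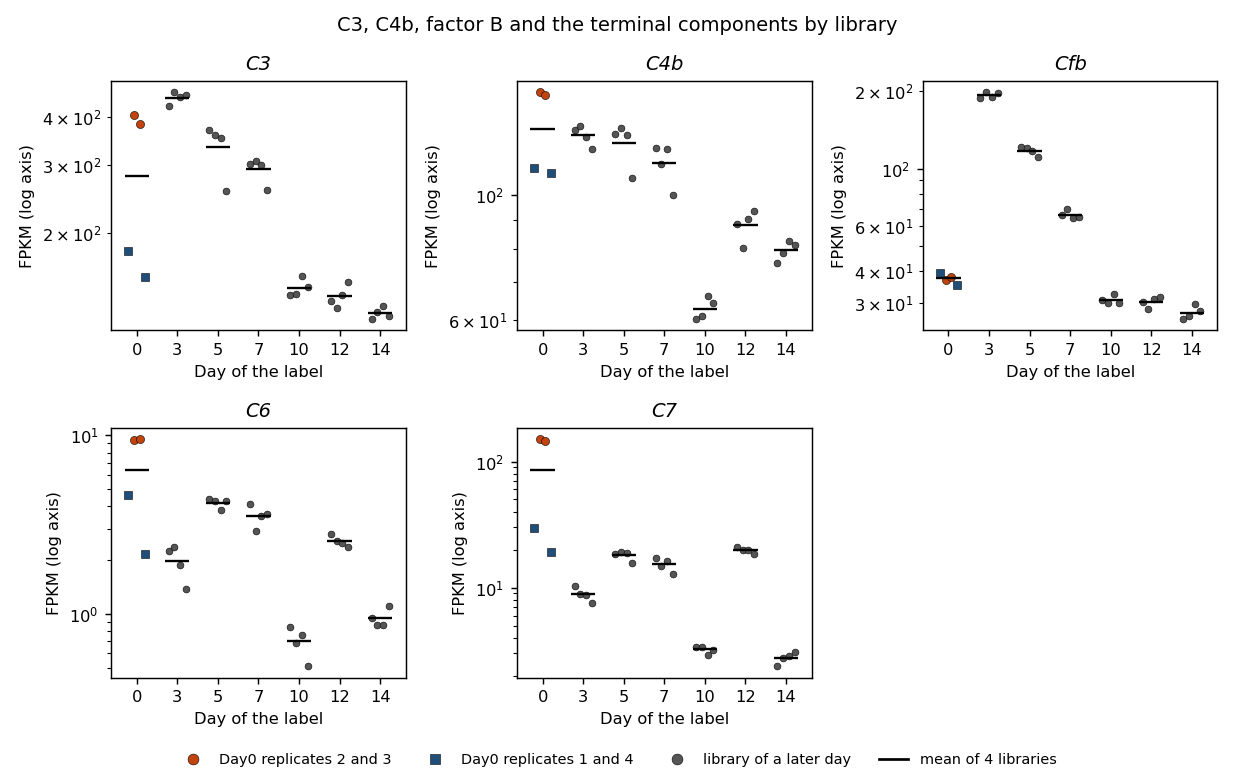
Levels of C3, C4b, Cfb, C6 and C7 in FPKM (log axes) against the day of the label, with 1 point for each of 28 libraries and a bar at the mean of the 4 libraries of a day. Cfb has its 4 Day0 libraries close together and peaks on Day3, while for the other 4 genes Day0 replicates 2 and 3 lie above replicates 1 and 4.

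C6 and C7 encode terminal components that C5b binds in turn as the membrane attack complex assembles. Both had a lower mean on Day3 than on Day0, without overlap for C7 and with overlap for C6. C7 had the widest range of the members, 30.9 times between its highest and lowest day mean.

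C7 was at 29.7, 149.6, 146 and 19.1 FPKM in replicates 1 to 4 of Day0, so that replicates 2 and 3 held 6.04 times the mean of replicates 1 and 4. Its libraries held 10.4, 8.88, 8.79 and 7.57 FPKM on Day3, 18.5, 19.1, 18.7 and 15.7 on Day5 and 17.2, 14.9, 16.3 and 12.9 on Day7. They held 3.40, 3.36, 2.93 and 3.22 on Day10, 21.1, 19.7, 19.8 and 18.4 on Day12 and 2.38, 2.78, 2.86 and 3.09 on Day14. Day3, Day10 and Day14 were the low days, and the Day10 and Day14 libraries were below those of every other day. On Day12 the C7 libraries overlapped those of Day5 and were above all of Day7.

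Against all 4 Day0 libraries, the log2 fold change of C7 was -3.21 ± 0.38 on Day3, -2.21 ± 0.37 on Day5, -4.79 ± 0.42 on Day10 and -5.08 ± 0.42 on Day14. The size rests on which Day0 libraries are used. On Day3 it was -1.36 against replicates 1 and 4 and -3.99 against replicates 2 and 3. It was -0.39 on Day5 and -0.44 on Day12 against replicates 1 and 4, and -2.99 and -3.04 against replicates 2 and 3. On Day14 it was -3.19 and -5.85. Against Day3 the log2 fold change on Day14 was -1.86 ± 0.38.

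C6 was lower in level, with 4.61, 9.45, 9.47 and 2.17 FPKM in the Day0 libraries, 282 to 1353 counts. Its libraries held 2.24, 2.36, 1.89 and 1.38 FPKM on Day3, 4.37, 4.31, 3.81 and 4.29 on Day5, 4.12, 2.89, 3.52 and 3.62 on Day7, 0.848, 0.689, 0.759 and 0.508 on Day10, 2.80, 2.56, 2.48 and 2.37 on Day12 and 0.946, 0.869, 0.871 and 1.11 on Day14. Day10 and Day14 were lowest, as for C7, with 71 to 150 counts of C6 a library. Among the later days C6 had its highest mean on Day5, and C7 on Day12. C6 had a log2 fold change of -1.65 ± 0.27 on Day3, -0.57 ± 0.26 on Day5, -0.86 ± 0.26 on Day7, -3.25 ± 0.29 on Day10 and -2.89 ± 0.29 on Day14. On Day3 it was -2.20 against Day0 replicates 2 and 3 and -0.69 against replicates 1 and 4. On Day5 the same pairs gave -1.13 and 0.35, and on Day7 -1.42 and 0.049, so that the sign on these 2 days depends on the pair. Both pairs gave values below 0 on Day10, at -3.80 and -2.33, and on Day14, at -3.44 and -1.90.

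C7 stood at 2.51 to 15.8 times the FPKM of C6, a far wider span than among the C1q chains. Within days, the deviations of C6 and C7 had an r of 0.86 over 28 libraries (adjusted permutation p = 0.00783, rho 0.65, r without the 2 farthest libraries 0.68). In the 24 libraries of the later days r was 0.39 (adjusted permutation p = 0.128, rho 0.46), so that the relation rests on the Day0 libraries. The deviations of C7 and of the mean log2 CPM of the 6 fibroblast markers had an r of 0.97 over 28 libraries (adjusted permutation p = 0.00037, rho 0.81, r without the 2 farthest 0.95) and of 0.64 in the later days (adjusted permutation p = 0.00438, rho 0.69, r without the 2 farthest 0.59). The 0.95 leaves out Day0 replicates 4 and 2 only. Day0 replicates 1 and 3, which are split in the same way, stayed in. For C4b and the fibroblast markers r was 0.76 (adjusted permutation p = 0.00037, rho 0.74, r without the 2 farthest 0.76) and 0.55 in the later days (adjusted permutation p = 0.00497). On Day10 C7 was at 2.93 to 3.40 FPKM and the summed markers were at 10486 to 11492 FPKM, whereas on Day14 the summed markers were at 3550 to 3995 FPKM and C7 was at 2.38 to 3.09. Whether the share of fibroblasts sets the level of C7 or C4b was not tested.

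The 2 genes lie on chromosome 15, C6 at chr15:4727175-4814967 on the plus strand and C7 at chr15:4988762-5063740 on the minus strand, 173794 bases apart with 1 protein-coding gene between them. The sequence before C7 is shown as that of the member with the widest range.

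C7, chr15:5063774-5064023, the 250 bases before the RefSeq start, capitals as above: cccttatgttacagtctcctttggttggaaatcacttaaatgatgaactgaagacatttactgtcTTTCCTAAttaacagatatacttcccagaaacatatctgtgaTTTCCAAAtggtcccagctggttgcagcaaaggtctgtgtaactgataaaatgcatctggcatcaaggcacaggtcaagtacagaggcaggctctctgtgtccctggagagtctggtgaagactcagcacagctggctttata

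TTNNGNAA was found at 2 places in the window of C7, starting 185 and 143 bases before the RefSeq start, and GAGGAA was not found. 

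C3ar1 encodes the receptor for C3a, a fragment of C3 that attracts and activates myeloid cells. Its libraries held 21.1, 7.54, 7.17 and 14.1 FPKM on Day0, 43.5, 48.5, 43.8 and 46.5 on Day3, 43.8, 42.3, 40.4 and 40.2 on Day5 and 23.7, 24.2, 23.6 and 23.99 on Day7. All libraries of these 3 later days were above those of Day0. It was at 16.7, 17.5, 19.5 and 16.0 on Day10, 14.0, 12.8, 13.6 and 13.8 on Day12 and 6.67, 7.48, 6.86 and 6.84 on Day14. The level thus went down at each step from Day3 on, with overlap between Day3 and Day5 only. On Day0 the split was opposite to that of C3, C6 and C7, with replicates 2 and 3 at 0.418 times the mean of replicates 1 and 4.

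The log2 fold change of C3ar1 was 1.92 ± 0.19 on Day3, 1.78 ± 0.19 on Day5, 0.93 ± 0.19 on Day7, 0.43 ± 0.19 on Day10, -0.027 ± 0.19 on Day12 and -0.97 ± 0.19 on Day14. On Day3 it was 2.69 against Day0 replicates 2 and 3 and 1.47 against replicates 1 and 4, and on Day14 -0.20 and -1.39. On Day10 the same pairs gave 1.20 and -0.072, and on Day12 0.74 and -0.51. The sign on Day10 and Day12 therefore depends on the pair, and on Day3, Day5, Day7 and Day14 it does not. Against Day3 the value on Day14 was -2.89 ± 0.20. Within days, the deviations of C3ar1 and of the macrophage markers had an r of 0.50 (adjusted permutation p = 0.329, rho 0.47, r without the 2 farthest libraries 0.11), and of 0.49 in the 24 libraries of the later days (adjusted permutation p = 0.0284, rho 0.52, r without the 2 farthest 0.35). The rho of 0.47 had an adjusted permutation p of 0.0349. For C1qa and C3ar1 r was 0.46 (adjusted permutation p = 0.19, rho 0.12, r without the 2 farthest 0.18) and 0.0041 in the later days (adjusted permutation p = 0.981). C3ar1 lies at chr6:122847138-122856161 on the minus strand.

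**Figure D3:**
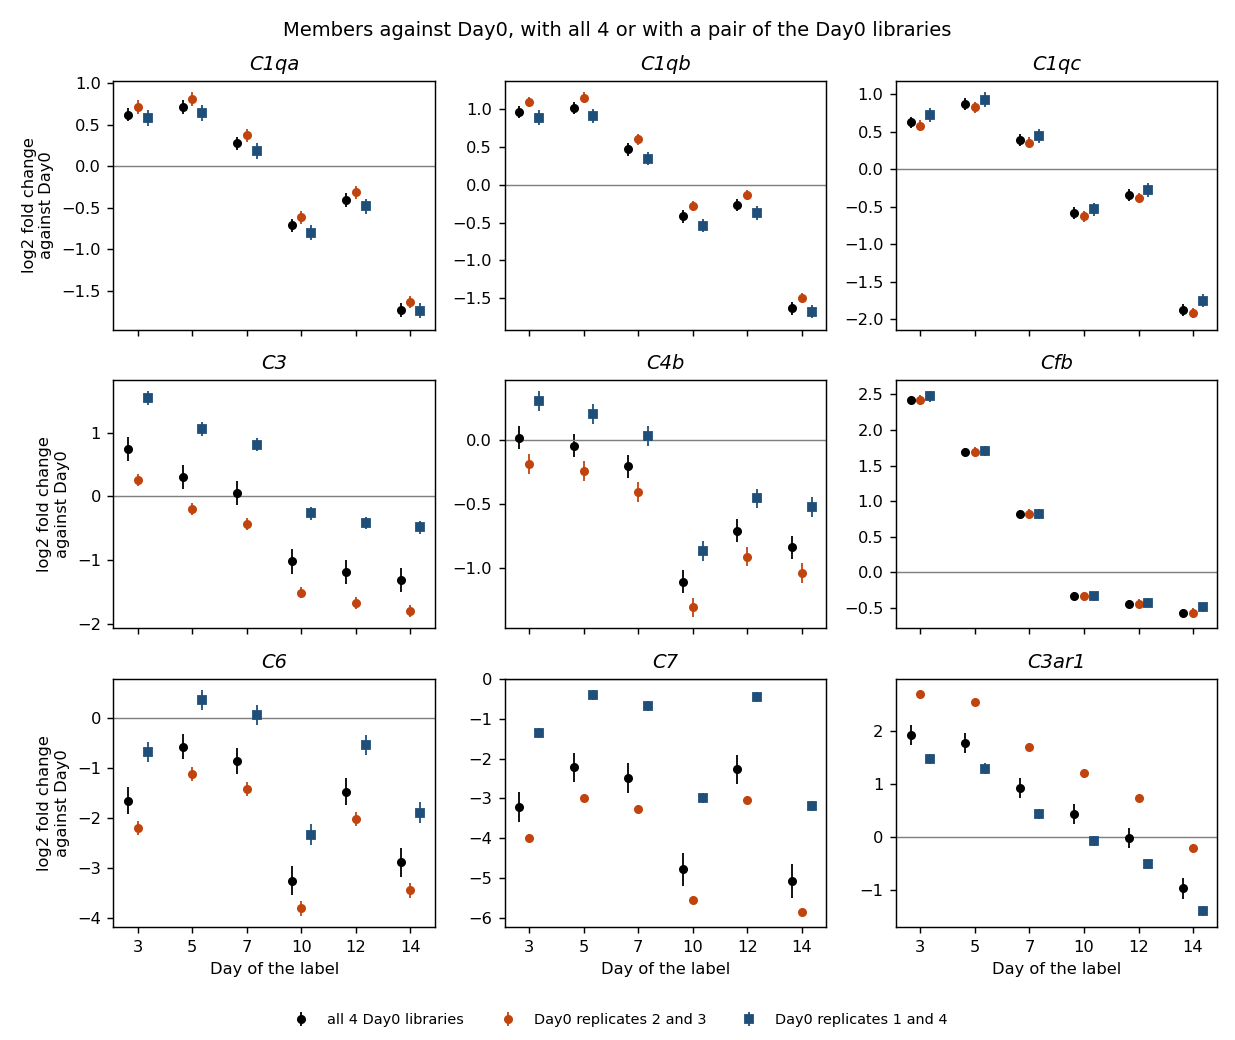
Log2 fold changes of the 9 members against Day0 (points, with bars of 1 standard error from the fit) on the 6 later days, with all 4 Day0 libraries (black), replicates 2 and 3 alone (orange circles) or replicates 1 and 4 alone (blue squares). The 3 references lie close together for Cfb and the C1q chains and far apart for C3, C6, C7 and C3ar1.

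Neutrophil markers set the early days apart. The summed FPKM of 6 neutrophil markers (S100a8, S100a9, Csf3r, Cxcr2, Ly6g and Retnlg) was 16.5 to 63.6 on Day0, 7632 to 9744 on Day3, 2690 to 3503 on Day5, 969 to 1805 on Day7 and 435 to 492 on Day10. It was 25.5 to 37.0 on Day12 and Day14. S100a8 and S100a9 made up most of the sum on every day. Ly6g, which defines neutrophils in the mouse, was at 0 counts in all libraries of Day0 and Day12. Cfb, C3 and C3ar1 had their highest mean on Day3, as these markers did, and whether neutrophils contributed to them was not tested.

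**Figure D4:**
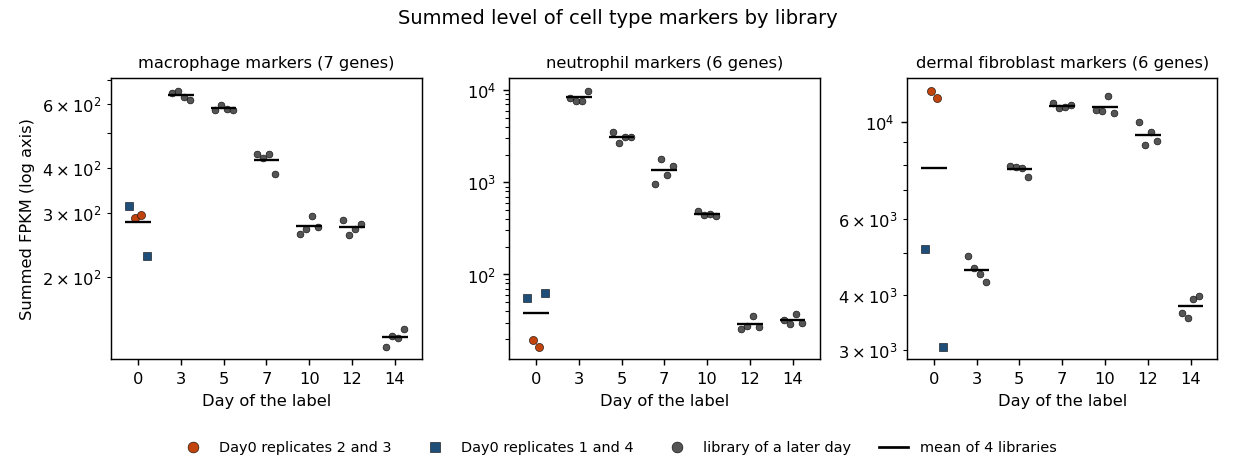
Summed FPKM (log axes) of the macrophage, neutrophil and dermal fibroblast markers against the day of the label, with 1 point for each of 28 libraries and a bar at the mean of the 4 libraries of a day. Macrophage and neutrophil markers are highest on Day3, and fibroblast markers are split on Day0 and high from Day7 to Day12.

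Counted over the members, 6 of 9 had all Day3 libraries above all Day0 libraries by FPKM (25.2% of the 18107 genes tested) and 1, C7, had them all below (31.1%). On Day5 the counts were 5 above (21.1%) and 0 below (25.3%), and on Day7 4 above (20.4%) and 1 below (19.0%). On Day10 0 were above (23.4%) and 7 below (18.7%), with the C3 and C3ar1 libraries overlapping. On Day12 0 were above (29.2%) and 4 below (12.1%), which were C1qa, C3, C4b and Cfb. On Day14 0 were above (30.2%) and 8 below (21.8%), with C3ar1 overlapping. Between Day14 and Day3, neither of which is Day0, 0 of 9 were above (42.3%) and 9 were below (24.9%). The members were chosen with these contrasts known, so nothing is read from these counts.

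Relative to Day3, the log2 fold change on Day14 ran from -2.99 for Cfb and -2.89 for C3ar1 over -2.60 for C1qb, -2.50 for C1qc, -2.35 for C1qa and -2.05 for C3 to -1.86 for C7, -1.24 for C6 and -0.85 for C4b. The median over all genes tested was 0.04 in this comparison.

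Day10 was a low point for several members, a comparison taken up after the values were seen and given without a test. C1qa, C1qb, C1qc, C4b, C6 and C7 each had all 4 Day12 libraries above all 4 Day10 libraries by FPKM, which holds for 30.3% of the genes tested, and also by log2 CPM (22.3%). The mean FPKM on Day12 was 6.12 times that on Day10 for C7, 3.64 times for C6, 1.40 times for C4b, 1.31 times for C1qa, 1.26 times for C1qc and 1.18 times for C1qb. C3 was at 0.951 times and Cfb at 0.986 times, with overlapping FPKM, but by log2 CPM all Day12 libraries of Cfb, as of C3ar1, lay below all of Day10 (23.5% of the genes tested). C3ar1 went the other way, with all Day12 libraries below Day10 (17.6% of the genes tested) at 0.777 times the mean. The markers of several other cell types also differed between these days. The summed FPKM of 4 brown fat markers, Ucp1 and Cidea among them, was 640 to 689 on Day10 and 157 to 172 on Day12, and Ucp1, the uncoupling protein of brown fat, had means of 187 and 4.93 FPKM. Elovl3, another of the 4, overlapped between these days, at means of 45.5 and 43.8 FPKM. The 4 hemoglobin genes taken as red blood cell markers summed to 1231 to 1398 and 490 to 616 FPKM, and the 6 neutrophil markers to 435 to 492 and 25.5 to 35.0 FPKM. Most of the neutrophil sum came from S100a8 and S100a9. Csf3r was at means of 4.74 and 1.80 FPKM and Cxcr2 at 1.84 and 0.272. The sums for dermal fibroblasts, basal keratinocytes, adipocytes, endothelium and skeletal muscle were also lower in all Day12 libraries than in all Day10 libraries. Not every marker in these sums fell. Dcn (means 874 and 1345 FPKM), Krt15 (327 and 415), Trp63 (16.9 and 28.4) and Lep (9.52 and 13.5) were higher in all Day12 libraries. All other markers in these sums had lower means on Day12. The sum of 4 suprabasal keratinocyte markers was higher, at 648 to 721 against 449 to 547 FPKM, with Krt10 at means of 168 and 68.3. The sums of the macrophage and hepatocyte markers overlapped, but single macrophage markers moved in opposite directions. Adgre1, Fcgr1 and Mrc1 were higher in all Day12 libraries, with Mrc1 at means of 29.8 FPKM on Day10 and 44.0 on Day12. Cd68 was lower in all Day12 libraries, at means of 126 and 97.6 FPKM. The other macrophage markers overlapped. The part of these shifts in the differences of the members was not tested.

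For each member the 2 genes with the most similar course were taken, by Pearson's r of log2 CPM over the 28 libraries, among 10708 genes with a mean of at least 10 CPM that are neither members nor in the complement list. They were Ly86 (r = 0.99) and Adgre1 (0.99), both known from macrophages, for C1qa. They were Clec4a1 (0.99) and Adgre1 (0.99) for C1qb, and Adgre1 (0.99) and Csf1r (0.99) for C1qc. For C3ar1 they were Lgmn (0.99), a lysosomal protease, and Cd68 (0.99), a lysosomal protein of macrophages. For Cfb they were Il4ra (0.99), the receptor for interleukin 4, and Pstpip1 (0.98). For C3 they were Carhsp1 (0.97) and Arhgap18 (0.96), for C4b St6gal1 (0.95) and Sft2d2 (0.94), for C6 Kbtbd11 (0.95) and Cd209f (0.94), and for C7 Ang (0.98) and Slco2b1 (0.98). These values mix the course over days with the split of Day0.

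The other genes of the cascade put the members in context. A list of 46 further complement genes was taken, of which 37 were tested, 8 had too few counts and C4a is not analysed here. It holds proteases and components of the classical (C1ra, C1rb, C1s1, C1s2, C2), lectin (Fcna, Colec11, Masp1, Masp2), alternative (Cfd, Cfp) and terminal (Hc, C8g, C9) routes, 7 fluid-phase regulators, 8 membrane regulators and 8 receptors. With p-values from edgeR (quasi-likelihood) adjusted after Benjamini and Hochberg over all 18107 genes, 16 of the 37 were higher (31.8% of all genes) and 9 lower (34.8%) on Day3 than on Day0. On Day5 16 were higher (29.0%) and 7 lower (30.6%), on Day7 16 (25.6%) and 8 (24.8%), and on Day10 13 (23.5%) and 12 (26.9%). On Day12 7 were higher (21.7%) and 13 lower (25.6%), and on Day14 5 (28.2%) and 20 (34.5%). Against Day3, 7 were higher (34.2%) and 22 lower (32.8%) on Day14. The comparisons against Day0 share its libraries. The median log2 fold change of the 37 was 0.12 on Day3, 0.26 on Day5, 0.43 on Day7, -0.14 on Day10, -0.19 on Day12 and -0.49 on Day14, against -0.03, -0.02, 0.00, -0.02, -0.04 and -0.06 for all genes tested. With the limits of the study's methods, an absolute log2 fold change over 1.5 and an unadjusted P under 0.05, 10 genes were higher (6.50% of all genes) and 4 lower (12.4%) on Day3, 10 (5.61%) and 2 (8.31%) on Day5, and 7 (4.66%) and 2 (4.74%) on Day7. By the same limits 4 were higher (4.33%) and 1 lower (5.14%) on Day10, 2 (3.89%) and 1 (3.51%) on Day12, and 3 (5.15%) and 5 (8.83%) on Day14. Between Day3 and Day14 they gave 3 higher (1630 of the 18107 genes tested) and 14 lower (9.58%) on Day14.

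**Figure D5:**
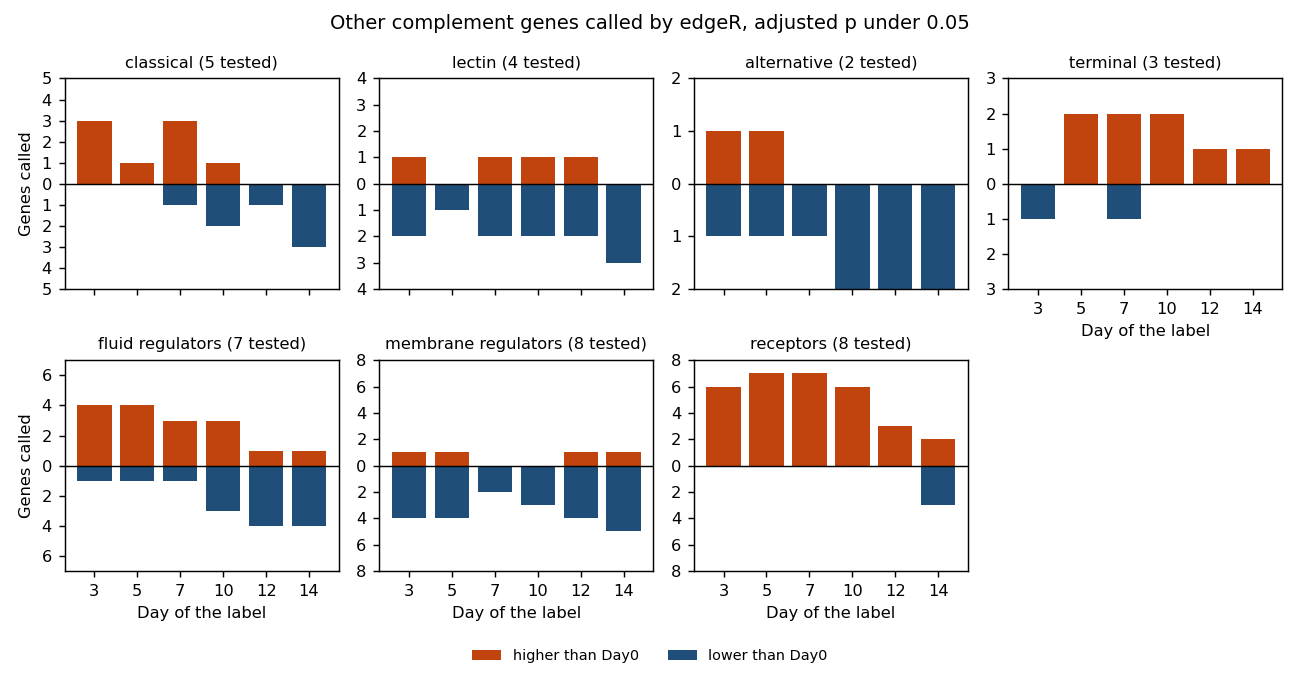
Number of other complement genes called higher (orange, up) or lower (blue, down) than on Day0 by edgeR at an adjusted p under 0.05 on the 6 later days, in 7 groups whose vertical axes span the number of genes tested. Receptors are mostly higher until Day10, whereas fluid-phase and membrane regulators fall into both directions.

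C3ar1 belongs with the receptors of complement fragments, and the other receptors mostly rose early. On Day3, 6 of 8 were higher (31.8% of all genes) and 0 lower (34.8%). C5ar1, the main receptor for C5a, was at 9.49, 8.19, 7.05 and 7.01 FPKM on Day0 and 44.4, 44.8, 46.1 and 45.6 on Day3, without overlap, a log2 fold change of 2.57 ± 0.10, adjusted p = 7.0e-18. On Day14 it was at 3.24, 3.74, 3.86 and 5.02 FPKM (-1.13 ± 0.11, adjusted p = 4.6e-10), below all of Day0. C5ar2, the second C5a receptor, rose on Day3 as well (2.23 ± 0.20, adjusted p = 8.7e-11). Itgam and Itgb2 encode the chains of complement receptor 3, and Itgam rose on Day3 (2.70 ± 0.11, adjusted p = 1.2e-17) and was below Day0 on Day14 (-1.32 ± 0.11, adjusted p = 3.8e-11), while Itgb2 rose on Day3 (1.98 ± 0.083, adjusted p = 1.5e-17) and was at 0.054 ± 0.081, adjusted p = 0.58 on Day14.

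Itgax encodes the alpha chain of complement receptor 4, and it was highest on Day10, not on Day3. Its libraries held 4.64, 3.26, 2.86 and 4.17 FPKM on Day0, 5.58, 5.10, 4.97 and 5.03 on Day3 and 12.4, 14.2, 15.6 and 14.2 on Day10, with a log2 fold change on Day10 of 1.86 ± 0.10, adjusted p = 3.2e-14. Vsig4, the complement receptor of resident macrophages, was at 0.179, 0.189, 0.497 and 0.0760 FPKM on Day0 and 2.00, 1.87, 1.503 and 1.05 on Day7 (2.75 ± 0.36, adjusted p = 2.5e-07), from 4 to 28 and from 60 to 113 counts, with a value of 3.41 without Day0 replicate 3. Cd93, once described as a C1q receptor, rose on Day5 (1.69 ± 0.093, adjusted p = 8.7e-15).

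Among the fluid-phase regulators, Clu encodes clusterin, which blocks the terminal complex. It was at 57.1, 47.3, 47.4 and 54.1 FPKM on Day0 and 268, 290.4, 302 and 319 on Day3, without overlap (2.57 ± 0.071, adjusted p = 1.8e-21), and on Day14 it was below Day0 by the test (-0.23 ± 0.067, adjusted p = 0.0044) though its libraries overlapped, a call that was lost without Day0 replicate 1 (-0.092) or replicate 4. Cpn2, a subunit of the carboxypeptidase that inactivates C3a and C5a, held 0 to 15 counts on Day0 and 709 to 886 on Day3 (6.84 ± 0.28, adjusted p = 7.7e-18), with a value of 7.56 without Day0 replicate 1 and 1 Day0 library at 0 counts. Cfi, the protease that degrades C3b and C4b, held 0 or 1 count on Day0 and 38 to 68 on Day3 (adjusted p = 1.3e-10, edgeR), where no fold is given because Day0 was under 3 counts. Cpn1, the catalytic subunit of the same carboxypeptidase as Cpn2, held 0 to 5 counts on Day0 and 7 to 23 on Day5 (adjusted p = 0.0022, edgeR).

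Serping1, the C1 inhibitor, was at 318, 612, 617 and 232 FPKM on Day0 and 135, 139.5, 159.8 and 152 on Day14 (-1.73 ± 0.18, adjusted p = 2.6e-09). On Day3 Serping1 was at 0.37 against Day0 replicates 1 and 4 and at -0.37 against all 4, and its sign turned likewise on Day5, Day7 and Day12.

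Of the 8 membrane regulators, 4 were lower on Day3 (Cd55, Cd59a, Csmd1 and Susd4), where 34.8% of all genes were, and 1, Cr1l, higher (31.8%), of which Cd55, Cd59a and Cr1l are named after their values were seen. Susd4, a regulator of the classical and lectin convertases, was at 0.671, 0.283, 0.493 and 0.565 FPKM on Day0, 0.105, 0.0700, 0.153 and 0.0630 on Day3 (-2.29 ± 0.27, adjusted p = 3.1e-08) and 1.35, 1.32, 1.20 and 0.990 on Day12 (1.13 ± 0.22, adjusted p = 0.00014). It was thus below Day0 early and above it late, without overlap either time. Csmd1 was lower on each of the 6 days, with -1.88 ± 0.26, adjusted p = 4.5e-07 on Day5.

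Lectin and alternative route genes moved in both directions. Fcna, a ficolin of macrophages, was at 8.11, 20.8, 20.7 and 6.91 FPKM on Day0 and 0.849, 1.25, 1.36 and 1.02 on Day14 (-3.78 ± 0.27, adjusted p = 2.9e-12). Its value on Day5 had opposite signs against all 4 Day0 libraries (-0.02) and against replicates 1 and 4 (0.89). Colec11, a collectin, was lowest on Day3 (-2.30 ± 0.21, adjusted p = 1.4e-10) and below Day0 on all 6 days. Cfp encodes properdin, which stabilizes the convertase that holds factor B. It was at 69.4, 49.1, 51.6 and 55.7 FPKM on Day0 and 153, 152, 151 and 149.6 on Day3 (1.48 ± 0.084, adjusted p = 9.6e-15), and at 15.4, 15.7, 16.3 and 18.1 on Day14 (-1.91 ± 0.087, adjusted p = 3.8e-16).

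The terminal genes beside C6 and C7 had low counts. Hc, which encodes C5, held 1 to 6 counts a library on Day0, 41 to 80 on Day7 and 99 to 142 on Day12, a log2 fold change of 4.82 ± 0.41, adjusted p = 1.9e-10 on Day12. C9 held 11 to 17 counts on Day0 and 0 to 2 on Day3, which is under the floor of 3 counts (adjusted p = 5.3e-05, edgeR). C8g rose on Day7 (1.57 ± 0.29, adjusted p = 4.7e-05), from 15 to 28 to between 69 and 78 counts. C1s2, a copy of the C1s protease gene whose reads could have been split with C1s1, rose on Day7 (2.03 ± 0.34, adjusted p = 1.2e-05).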

How the data were processed

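RNA of whole wound sites was sequenced in 28 libraries, 4 for each of 7 days, and samples were grouped by the day in their labels. The authors deposited raw gene counts and FPKM per gene symbol. The submitters' processing notes name fastp, R 3.2.0 and mm10, and the aligner, counter, annotation and strand setting are not given in the sources used here. The deposited FPKM are scaled to gene length and total counts and carry no correction for library composition. From the raw counts, edgeR 4.0.16 in R 4.3.3 (TMM, filterByExpr, quasi-likelihood test, 1 fit of all 28 libraries with 21 residual degrees of freedom) tested 18107 of 29068 symbols, with Benjamini-Hochberg adjustment over all 18107. DESeq2 1.42.0 was an alternative. The scripts were tested on simulated data. Log2 CPM used a prior count of 2.

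The members and the lists were chosen with earlier results of these data known. Differences of the members between days carry no test. Other complement genes are named where, on at least 1 later day, the absolute log2 fold change passed 1.5, the adjusted p was under 0.05 and the 4 libraries did not overlap those of Day0. Withheld items are not reported here by name, though they stay in the counts and sums of their lists. Relations were computed on deviations from day means, with two-sided p-values from 100000 permutations within days, adjusted over 11 relations. Positions are from GENCODE vM21, and sequences from RefSeq GRCm38.p6, leaving out bases that GENCODE places in the gene. Depth was 36706513 to 40655764 counts a library, and counts and floors of 3 counts carry counting error only. No pair of libraries agreed within sampling noise (lowest median chi-square over genes 1.48). Alternatives were another normalization or none, no filter, DESeq2, the 8 libraries of the days compared alone, the replicate number as a block, each library left out, the later days alone for the relations and, added after seeing the data, either pair of Day0 libraries alone.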

Additional observations from a re-analysis of the deposited data

Results flagged for a closer look

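In groups of 4 libraries, a library stood apart by Dixon's test at its 95% critical value in 18 of 210 combinations of gene and day, where chance gives 10.5, and in 10 of the 63 for the members, where chance gives 3.15. All values are log2 CPM. Day5 replicate 4 was the library in 6 of the 18. It was lowest for C3 (10.47, the others 10.91 to 10.99), for C4b (9.29, the others 9.51 to 9.55) and for C7 (6.08, the others 6.29 to 6.33), and highest for Cfp (7.74), Clu (8.28) and C5ar1 (6.89).

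Day0 replicate 1 was highest for C1qa (8.33, the others 7.94 to 7.996), for C1qb (8.47, the others 7.95 to 8.04) and for Itgb2 (6.55). Among the other members, C1qc was lowest in Day3 replicate 4 (8.39), C3 was lowest in Day7 replicate 4 (10.4) and highest in Day14 replicate 3 (9.35), C6 was lowest in Day5 replicate 3 (3.82) and C3ar1 was highest in Day7 replicate 2 (6.74). Among the other complement genes, Csmd1 was highest in Day14 replicate 4 (1.28). At low counts, C1s2 was lowest in Day3 replicate 1 (-1.52), C9 in Day14 replicate 3 (-2.17) and Cpn1 in Day7 replicate 1 (-3.29).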

How the results depend on the processing

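Of the counts of other complement genes and the relations, 432 values under the alternatives stayed on the same side and near the value given above and 19 did not, and for the members 937 differences stayed within the spread between libraries and the others moved by more. With Day0 replicates 1 and 4 alone, the log2 fold change turned its sign for Serping1 on Day3 (0.37), Day5 (0.34), Day7 (0.35) and Day12 (0.097), for Fcna on Day5 (0.89) and Day7 (0.24) and for C6 on Day7 (0.049), and the values of C6 on Day5 (0.35), C3ar1 on Day10 (-0.072) and C4b on Day5 (0.21) and Day7 (0.034) had the opposite sign as well. With replicates 2 and 3 alone this held for C3 on Day5 (-0.19) and Day7 (-0.43), C4b on Day3 (-0.18) and C3ar1 on Day12 (0.74). With replicates 2 and 3 alone, 11 genes were lower on Day5 by adjusted p, and by the limits of the study's methods 0 on Day5, 0 on Day7, 3 on Day10 and 2 on Day12, while replicates 1 and 4 alone gave 2 on Day10 and 0 on Day12. Without composition normalization 8 genes were higher on Day14 by adjusted p, and the median of all genes moved to 0.11 on Day12 and to 0.22 for Day14 against Day3. Leaving out 1 library gave 0 to 2 genes lower on Day7 (0 without Day0 replicate 4, 1 without Day0 replicate 2, Day7 replicate 1 or Day7 replicate 3) and 1 to 3 on Day10 (3 without Day0 replicate 1 or 4) by the limits of the study, and 5 to 8 higher on Day14 by adjusted p (8 without Day0 replicate 1). With no filter, 6 genes were higher on Day14 than on Day3 by the limits of the study. In the 24 libraries of the later days Pearson's r passed the threshold for C3ar1 with the macrophage markers (0.49) and for C3 with Cfb (0.69), and no longer for C6 with C7 (0.39). By Spearman's rho the first 2 of these relations passed in all 28 libraries too. For named genes of the list, 95 single calls changed side, 77 of them with a library left out or a Day0 pair alone. The cause was not tested. Same-numbered libraries of different days had correlations of -0.076 to 0.18, so the numbers do not pair the libraries, and the replicate block gave 15 higher and 9 lower on Day3 and moved no count by over 1.5 times. Counts under about 10 a library (Cfi, C9, Cpn1) limit what can be said of those genes.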

Other observations

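Between Day10 and Day12, 10 of the other 37 complement genes tested were higher (30.3% of all genes tested) and 11 lower (17.6%) on Day12 without overlap of FPKM, and 7 higher (22.3%) and 11 lower (23.5%) by log2 CPM, a comparison taken up after the values were seen and given without a test. Those higher include Serping1, the C1 inhibitor, with 172, 169.9, 179 and 167 FPKM on Day10 and 342, 313, 326 and 309 on Day12. Fcna was at 1.58 times its Day10 mean. Those lower include the receptor genes C5ar1, Itgam, Itgax, Itgb2 and Cd93, the last at 0.450 times. Macrophage markers summed to 263 to 295 FPKM on Day10 and 261 to 287 on Day12, neutrophil markers to 435 to 492 and 25.5 to 35.0. Within the macrophage sum, Adgre1, Fcgr1 and Mrc1 were higher in all Day12 libraries, Cd68 was lower, and the others overlapped. The part of these cells in the differences was not tested.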
